A study of Mus musculus with 6 samples.

Results

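Adipocyte marker genes report how much fat tissue, and in which state, is carried in a piece of dissected muscle. The genes described here are 10 adipocyte markers chosen by name, namely *Adipoq*, *Fabp4*, *Plin1*, *Cfd*, *Lep*, *Retn*, *Cidec*, *Cidea*, *Adrb3* and *Car3*. All 10 were found among the 53084 genes of the count table, and all 10 were among the 15075 genes with enough counts to be tested. No marker separated the genotypes completely, against 24.6% of all tested genes. The markers other than *Lep*, 9 in number, were highest in *Tarsl2*-/- mouse 589, a rank that 19.9% of all tested genes shared. None of the 10 passed the test between genotypes, where 2.27% of all tested genes did.

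Adipocytes store triglyceride in a single large droplet (white fat) or in many small droplets beside dense mitochondria (brown and beige fat). They coat the droplet with proteins that control access of lipases, release fatty acids during fasting, and secrete hormones such as leptin and adiponectin. In skeletal muscle, adipocytes lie between the fibre bundles and around the muscle, so that a bulk muscle sample holds some of their RNA. *Fabp4* is also transcribed in capillary endothelium and macrophages, and *Car3* is also abundant in slow muscle fibres.

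RNA came from the muscle of 3 *Tarsl2*+/+ mice (583, 584 and 595) and 3 *Tarsl2*-/- mice (588, 589 and 591), all male C57BL/6 mice 6 weeks old on standard chow, with 1 library per mouse. *Tarsl2* encodes a threonyl-tRNA synthetase, and the knockout animals lack exon 3 of the gene in every tissue, after Cas9 cutting in zygotes of the C57BL/6J substrain. Which muscle was taken, how the fat around it was trimmed and the feeding state were not given in the sources used here. The sample records name retinas in their extraction text, whereas 4 of 10 retinal marker genes had no count in any library and 6 of the 10, those 4 included, had at most 3 counts in every library, the highest count of the rest being 370 for *Rom1*. Library totals ranged from 16176591 to 20123767 counts. *Tarsl2* itself had between 456 and 605 counts in *Tarsl2*+/+ muscle and between 30 and 40 in *Tarsl2*-/- muscle. No other source of replicate information is given, so the p-values measure the spread between these libraries.

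Libraries 589 and 584 had the largest shares of adipocyte RNA and are named here before any comparison. The title of library 589 also differs in form from those of the other 5, and the sources used here do not say why. The 10 markers together took 0.466%, 0.644% and 0.374% of the counts in *Tarsl2*+/+ mice 583, 584 and 595. They took 0.454%, 0.968% and 0.509% in *Tarsl2*-/- mice 588, 589 and 591. Mouse 589 thus had the largest share, followed by mouse 584 of the other genotype. The remaining 4 mice ran from 0.374% to 0.509%, and mouse 584 was nearer to mouse 591 than to mouse 589.

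On normalized levels mouse 589 was again highest, mouse 584 second and mouse 595 lowest. Counts were scaled to CPM, the count of a gene per total count of its library, with library sizes adjusted by TMM, a trimmed mean of the ratios between libraries. The summed level was 4590, 6303 and 3830 CPM in *Tarsl2*+/+ mice 583, 584 and 595, and 4690, 9772 and 4981 CPM in *Tarsl2*-/- mice 588, 589 and 591. The means were 4908 ± 1267 CPM in *Tarsl2*+/+ and 6481 ± 2853 CPM in *Tarsl2*-/- muscle (SD, n = 3 each), a ratio of 1.32 that is smaller than the spread within *Tarsl2*-/- muscle. Mouse 589 exceeded mouse 595 by 2.55-fold. Set against 9 muscle fibre genes (*Acta1*, *Ckm*, *Myh4*, *Mylpf*, *Des*, *Myot*, *Tcap*, *Neb* and *Ttn*), the markers reached 59.8, 86.4 and 52.5 CPM per 1000 CPM in *Tarsl2*+/+ mice and 55.2, 124 and 62.2 in *Tarsl2*-/- mice, in mouse order. The group means of this ratio were 66.2 ± 17.8 in *Tarsl2*+/+ and 80.6 ± 38.0 in *Tarsl2*-/- muscle (SD, n = 3 each). The summed muscle genes were themselves higher in each *Tarsl2*-/- mouse than in any *Tarsl2*+/+ mouse.

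*Fabp4*, *Cfd* and *Car3* supplied between 88.5% and 91.5% of the summed level, and the other 7 markers were far lower. With *Fabp4* and *Car3* left out, because other cells of muscle also express them, the sum was 1318, 1987 and 1212 CPM in *Tarsl2*+/+ mice and 1302, 3845 and 1381 CPM in *Tarsl2*-/- mice. Mouse 589 remained highest and mouse 584 second. Per kilobase of the principal transcript, the median level over the 6 libraries was highest for *Fabp4* at 2328 CPM per kb, then *Cfd* at 1014 and *Car3* at 859. *Adipoq* (92.8 CPM per kb), *Retn* (88.9) and *Cidec* (65.4) formed a middle group, and their ranges over the libraries overlapped. *Cidea* stood at 40.6, *Plin1* at 14.1, *Lep* at 2.90 and *Adrb3* at 1.07 CPM per kb, so the hormone leptin and the beta3-adrenergic receptor were the least abundant of the marker transcripts per length.

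**Figure D1:**
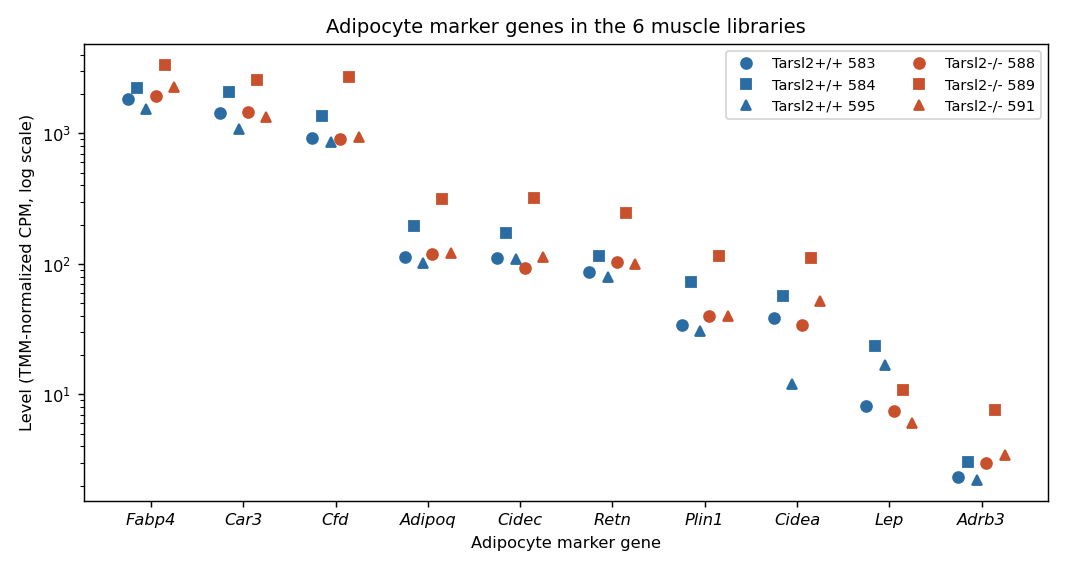
Level of each of the 10 adipocyte markers (x axis, ordered by mean level in *Tarsl2*+/+ muscle) in each library, as TMM-normalized CPM on a log axis, with blue points for *Tarsl2*+/+ and orange points for *Tarsl2*-/- mice. The orange squares of mouse 589 are the highest points for 9 genes, whereas *Lep* is highest in *Tarsl2*+/+ mouse 584 at 23.5 CPM.

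Among the secreted markers, *Adipoq* (chr16:23146536-23158028 on mm10, plus strand) encodes adiponectin, an insulin-sensitizing hormone made almost only by adipocytes. *Adipoq* stood at 114, 195 and 102 CPM in *Tarsl2*+/+ mice 583, 584 and 595 and at 119, 313 and 121 CPM in *Tarsl2*-/- mice 588, 589 and 591. Apart from mice 584 and 589, the values of both genotypes lay within 102 to 121 CPM, with both *Tarsl2*-/- mice above both *Tarsl2*+/+ mice. The share of all genes with that order was not counted. Without mice 589 and 584 the log2 fold change of *Adipoq* was 0.16 (SE 0.11, adjusted p = 0.465). As log2 of *Tarsl2*-/- over *Tarsl2*+/+ muscle, the fold change was 0.43 with a standard error of 0.35 and an adjusted p of 0.533 (edgeR's quasi-likelihood test, Benjamini-Hochberg over 15075 genes, as for all adjusted p-values that follow). Without mouse 589, the log2 fold change of *Adipoq* was -0.19 (adjusted p = 0.75).

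*Cfd* (chr10:79890853-79892655, plus strand) encodes adipsin, the complement factor D protease. Its level was 924, 1349 and 861 CPM in *Tarsl2*+/+ mice and 903, 2722 and 946 CPM in *Tarsl2*-/- mice, so that mouse 589 exceeded the mean of the other *Tarsl2*-/- mice by 2.95-fold. The genotypes overlapped, with a log2 fold change of 0.54 (SE 0.36, adjusted p = 0.432), and it was -0.17 without mouse 589 (adjusted p = 0.698). *Retn* (chr8:3655770-3660110, plus strand) encodes resistin, a small cysteine-rich hormone of mouse fat. *Retn* was measured at 86.2, 114 and 79.4 CPM in *Tarsl2*+/+ mice and 103, 244 and 99.3 CPM in *Tarsl2*-/- mice. Its log2 fold change of 0.67 (SE 0.29, adjusted p = 0.228) fell to 0.12 without mouse 589 (adjusted p = 0.744).

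*Lep* (chr6:29060220-29073877, plus strand) encodes leptin, the hormone through which fat stores signal to the hypothalamus, and it did not follow the other markers. *Lep* stood at 8.13, 23.5 and 16.7 CPM in *Tarsl2*+/+ mice 583, 584 and 595, and at 7.41, 10.8 and 6.07 CPM in *Tarsl2*-/- mice 588, 589 and 591. These levels rest on 139, 442 and 319 counts in *Tarsl2*+/+ and 133, 173 and 125 counts in *Tarsl2*-/- mice. Mice 584 and 595 were above all *Tarsl2*-/- mice, and mouse 583 lay within the *Tarsl2*-/- range, where its exact 95% Poisson interval (6.83 to 9.59 CPM, counting error only) overlapped those of all 3. The log2 fold change of *Lep* was -1.01 (SE 0.32, 95% interval -1.71 to -0.31, adjusted p = 0.116), and the exact two-sided permutation test gave p = 0.2, where 3 mice against 3 allow no p under 0.1. *Lep* passed the threshold in 1 of the fits that left out 1 library, the one without *Tarsl2*+/+ mouse 583 (log2 fold change -1.33, adjusted p = 0.0344, in a fit where 0.526% of 15411 genes passed). In the fits without 1 library its log2 fold change ran from -1.33 to -0.64, and it was -1.26 without mouse 589, where the adjusted p was 0.128.

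The start regions of *Adipoq* and *Lep* are shown because *Adipoq* is the reference for the ratios given further on and *Lep* is the marker that did not follow the others. Start regions from RefSeq (GRCm38.p6) were matched for 6 of the 10 markers, *Adipoq*, *Plin1*, *Cfd*, *Lep*, *Retn* and *Cidec*. The 250 bases before the start are printed on the plus strand, chr16:23146286-23146535 for *Adipoq* and chr6:29059971-29060220 for *Lep*, with motif matches in capitals.
Adipoq: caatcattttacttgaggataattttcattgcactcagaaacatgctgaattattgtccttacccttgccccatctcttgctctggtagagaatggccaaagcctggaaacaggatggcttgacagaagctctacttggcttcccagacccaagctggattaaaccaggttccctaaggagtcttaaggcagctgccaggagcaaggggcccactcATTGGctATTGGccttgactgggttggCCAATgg
Lep: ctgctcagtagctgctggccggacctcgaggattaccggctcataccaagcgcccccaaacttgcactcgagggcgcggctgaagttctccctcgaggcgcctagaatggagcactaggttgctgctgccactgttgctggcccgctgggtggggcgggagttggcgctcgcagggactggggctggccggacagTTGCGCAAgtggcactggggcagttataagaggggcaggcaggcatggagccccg
Both strands were searched for TTGCGCAA (the C/EBP palindrome), for TATAAA (the TATA box, held by 13.0% of all start regions), for CCAAT (the binding motif of NF-Y) and for the PPAR response element, which 10 of the 27025 start regions and none of those of the 6 markers held. *Lep* had TTGCGCAA starting 55 bases before its start, letters that 46 of 27025 start regions of the same length held (0.17%). *Adipoq* had 3 matches of CCAAT, 7, 27 and 34 bases before its start, 2 of them on the minus strand and written ATTGG, and 34.5% of all start regions held at least 1. The other 4 markers searched had no match to these letters, and a match is a description of the letters and not of binding. The PPAR response element was searched only as an exact repeat of the same letters with 1 free base between the copies. Looser spellings and bases further than 250 from the start were not searched. Whether the markers or other genes have other forms of this element was thus not tested.

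The lipid droplet markers moved with *Adipoq*. *Plin1* (chr7:79720218-79732903, minus strand) encodes perilipin-1, the droplet coat of adipocytes that restrains lipolysis, and stood at 34.0, 72.0 and 30.7 CPM in *Tarsl2*+/+ mice and 39.6, 115 and 40.0 CPM in *Tarsl2*-/- mice. *Cidec* (chr6:113424634-113435760, minus strand) encodes a protein that fuses droplets into the single droplet of white fat, and stood at 111, 174 and 109 CPM against 93.3, 321 and 114 CPM. For both genes mouse 589 was highest and mouse 584 second, and among the other 4 mice the genotypes overlapped for *Cidec* but not for *Plin1*, where both *Tarsl2*-/- mice lay above both *Tarsl2*+/+ mice. Without mice 589 and 584 the log2 fold change of *Plin1* was 0.30 (SE 0.11, adjusted p = 0.167). The share of all genes that separate in the mice left was not counted. The log2 fold changes were 0.51 for *Plin1* (SE 0.41, adjusted p = 0.533) and 0.42 for *Cidec* (SE 0.38, adjusted p = 0.581). Both turned negative without mouse 589, to -0.19 and -0.34 (adjusted p = 0.809 and 0.436).

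*Cidea*, a relative of *Cidec* that is most abundant in brown and beige fat, had its own pattern at the low end. It was measured at 38.8, 56.8 and 12.1 CPM in *Tarsl2*+/+ mice 583, 584 and 595 and at 33.8, 112 and 51.6 CPM in *Tarsl2*-/- mice 588, 589 and 591. Mouse 595 was at 0.27 of the 6-library median for *Cidea*, while its other marker levels apart from *Lep* ran between 0.74 and 0.97 of theirs. The widest spread of the 10 markers was that of *Cidea*, 9.25-fold from lowest to highest library. Its log2 fold change was 0.87 (SE 0.48, adjusted p = 0.348), and 0.26 without mouse 589 (adjusted p = 0.837). For *Cidea* the value without mice 589 and 584 was 0.76 (adjusted p = 0.319).

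*Fabp4* (chr3:10204088-10208576, minus strand), the cytosolic fatty acid carrier of adipocytes, was the most abundant marker, with 1839, 2234 and 1542 CPM in *Tarsl2*+/+ mice and 1937, 3362 and 2260 CPM in *Tarsl2*-/- mice. Its spread was the smallest, 2.18-fold over the 6 libraries, and its log2 fold change of 0.43 (SE 0.19, 95% interval 0.0033 to 0.85) did not pass the threshold (adjusted p = 0.249). The value was 0.17 without mouse 589 (adjusted p = 0.682). Endothelial markers, which share cells with *Fabp4*, gave summed levels of 403 to 436 CPM in *Tarsl2*+/+ and 377 to 469 CPM in *Tarsl2*-/- mice, and 1 of 15, *Cdh5*, was lower in *Tarsl2*-/- muscle (log2 fold change -0.64, adjusted p = 0.00929). Macrophage markers summed to 1611 to 1835 CPM in *Tarsl2*+/+ and 933 to 1191 CPM in *Tarsl2*-/- mice, and 7 of 13 were lower in *Tarsl2*-/- muscle, *Csf1r* among them (log2 fold change -0.53, adjusted p = 0.0167). Of all tested genes, 1.37% were called lower. Mouse 589, the highest library for *Fabp4*, was the highest for 1 of the 15 endothelial and 0 of the 13 macrophage genes, all of which had counts.

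*Adrb3* (chr8:27225776-27250616, minus strand) encodes the beta3-adrenergic receptor, which couples noradrenaline to lipolysis in fat. It was counted 40, 57 and 42 times in *Tarsl2*+/+ mice and 53, 122 and 71 times in *Tarsl2*-/- mice, that is 2.34, 3.03 and 2.20 CPM against 2.95, 7.61 and 3.45 CPM. Mouse 588 lay just below mouse 584, so the genotypes overlapped by this pair alone, and their Poisson intervals overlapped widely (2.21 to 3.86 and 2.29 to 3.92 CPM). The log2 fold change was 0.87 (SE 0.33, 95% interval 0.14 to 1.60, adjusted p = 0.178), and 0.35 without mouse 589 (adjusted p = 0.549). For *Adrb3* the value without mice 589 and 584 was 0.50 (adjusted p = 0.355). The antisense gene *Gm45470* shares 839 exon bases with *Adrb3* and had between 0 and 6 counts per library.

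*Car3* (chr3:14863512-14872523, plus strand) encodes carbonic anhydrase 3 and stood at 1432, 2081 and 1076 CPM in *Tarsl2*+/+ mice and 1451, 2565 and 1341 CPM in *Tarsl2*-/- mice. Its log2 fold change was 0.22 (SE 0.26, adjusted p = 0.687), and -0.13 without mouse 589 (adjusted p = 0.839). Of the 12 slow fibre genes, 10 were also highest in mouse 589, with *Myh7*, the slow myosin heavy chain, at 10.2, 9.99 and 22.1 CPM in *Tarsl2*+/+ and 11.1, 52.0 and 13.9 CPM in *Tarsl2*-/- mice. The summed slow fibre level, in which *Mb* (myoglobin) has a large share, was 3475, 3723 and 5195 CPM in *Tarsl2*+/+ and 4158, 4558 and 4360 CPM in *Tarsl2*-/- mice, so the sum did not single out mouse 589. None of the 12 passed the test between genotypes by edgeR, and 4 had an unadjusted p under 0.05. The part of slow fibres in the *Car3* level of mouse 589 was not tested.

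Across the 10 markers, 0 passed the threshold in either direction, where 2.27% of all tested genes did (0.896% upward, 1.37% downward). Among the 10, *Fabp4*, *Retn*, *Lep* and *Adrb3* had an unadjusted p under 0.05, a level that 19.8% of all genes reached, and DESeq2 (4.77% of all genes called) and limma-voom (2.11%) also called 0, with 2 and 1 at an unadjusted p under 0.05. Without the filter on low counts 9 of 10 were called, where 5.62% of 25553 genes were, in a fit whose prior degrees of freedom for the spread were infinite (7.23 with the filter). In no marker did the genotypes separate completely, against 24.6% of all genes. The median log2 fold change of the 10 was 0.47, with 9 positive, beside 0.00253 and 50.4% over all tested genes. The median was -0.15 without mouse 589 (0 of 10 called, 0.815% of 15456 genes). Without mice 589 and 584, a choice made after the levels were seen, it was 0.23, with the markers other than *Lep* between -0.08 and 0.76. In that fit 0 of 10 were called, beside 311 of all 15293 genes. Among the mice left, both *Tarsl2*-/- mice lay above both *Tarsl2*+/+ mice for *Adipoq*, *Plin1*, *Retn*, *Fabp4* and *Adrb3*, and below them for *Lep*. The genotypes overlapped there for *Cfd*, *Cidec*, *Cidea* and *Car3*. How many of all genes separate in these mice was not counted, so these orders are not read as a genotype difference. In bulk RNA, fewer adipocytes and less RNA per adipocyte cannot be told apart, so these values describe adipocyte RNA and not cell number.

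**Figure D2:**
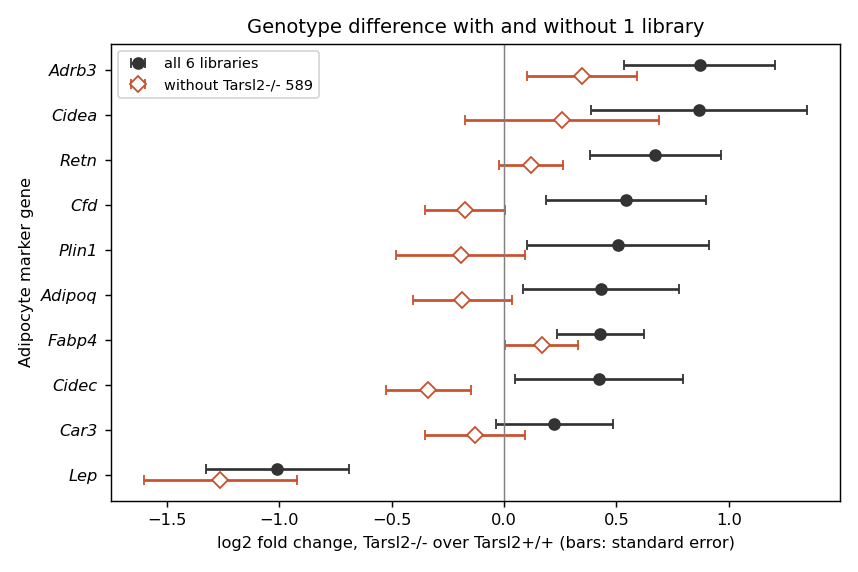
Log2 fold change of each marker (x axis, *Tarsl2*-/- over *Tarsl2*+/+, bars for the standard error) with all 6 libraries (filled circles) and without *Tarsl2*-/- mouse 589 (open diamonds). The 5 markers *Adipoq*, *Plin1*, *Cfd*, *Cidec* and *Car3* cross from positive to negative when mouse 589 is left out, and *Lep* stays negative at -1.01 and -1.26. With mouse 584 also left out (not drawn), *Adipoq*, *Plin1*, *Cfd* and *Car3* were positive (0.16, 0.30, 0.05 and 0.16) and *Cidec* was -0.08.

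Mouse 589 had the highest level of 9 of the 10 markers, a rank that 19.9% of all tested genes shared. In 7 of them mouse 584 was second, an order found in 4.91% of all genes, and mouse 595 was lowest in 8 of the 10. Over the mean of the other *Tarsl2*-/- mice, mouse 589 was between 1.60-fold (*Fabp4*) and 3.10-fold (*Cidec*) higher in these 9 genes. Mouse 584 exceeded the mean of the other *Tarsl2*+/+ mice by 1.32-fold (*Fabp4*) to 2.23-fold (*Cidea*). Correlations of log2 CPM over the 6 libraries had a median r of 0.92 over the 36 pairs without *Lep* (range 0.74 to 0.996) and of 0.23 over the 9 pairs with *Lep* (range -0.17 to 0.33). These are descriptions, and all pairs share the same 6 libraries.

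Other adipocyte genes, a list of 40 of which 37 were tested, had the same high library. Mouse 589 was highest for 28 of the 37 (75.7%), and mouse 589 first with mouse 584 second for 19 (51.4%). The droplet and lipolysis genes (*Lipe*, *Pnpla2*, *Mgll* and *Plin4*) and the uptake and transport genes (*Lpl*, *Cd36*, *Slc2a4*, *Aqp7* and *Slc7a10*) were all highest there, as were the secreted proteins *Rbp4*, *Orm1* and *Nrg4*. The genes of fatty acid synthesis differed in this rank, with 4 of 6 highest in *Tarsl2*+/+ mouse 584 and 2 in mouse 589. *Fasn*, fatty acid synthase, stood at 148, 218 and 57.7 CPM in *Tarsl2*+/+ mice 583, 584 and 595 and at 59.8, 169 and 92.0 CPM in *Tarsl2*-/- mice 588, 589 and 591. The *Fasn* levels overlapped between genotypes (log2 fold change -0.40, SE 0.42, adjusted p = 0.644).

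Between genotypes, 1 of the 37 genes rose and 0 fell, where 0.896% of all tested genes rose and 1.37% fell. *Gpam*, the mitochondrial acyltransferase that begins glycerolipid synthesis, was at 14.97, 21.36 and 15.96 CPM in *Tarsl2*+/+ mice and 23.3, 34.2 and 32.6 CPM in *Tarsl2*-/- mice, without overlap. Its log2 fold change was 0.78 (SE 0.16, adjusted p = 0.0347), and muscle fibres also express it. None of the 37 passed by edgeR in the fits without mouse 583, 595, 589 or 591, where 6, 6, 7 and 14 had an unadjusted p under 0.05. Over all genes, 2187 of 15411, 2206 of 15375, 2302 of 15456 and 2487 of 15404 reached that level in those fits. In the fit without mouse 588, 1 of the 37 passed and 14 reached that level, beside 187 and 2959 of 15452 genes. In the fit without mouse 584, 2 passed and 18 reached it, beside 625 and 3460 of 15394 genes. In the fit without mice 589 and 584, 4 passed and 14 reached it, beside 311 and 2842 of 15293 genes. With all 6 libraries the median of the 37 was 0.38, with 30 positive, and 7 had an unadjusted p under 0.05, a level reached by 19.8% of all genes. The medians by role ran from -0.17 for fatty acid synthesis to 0.77 for the secreted proteins.

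**Figure D3:**
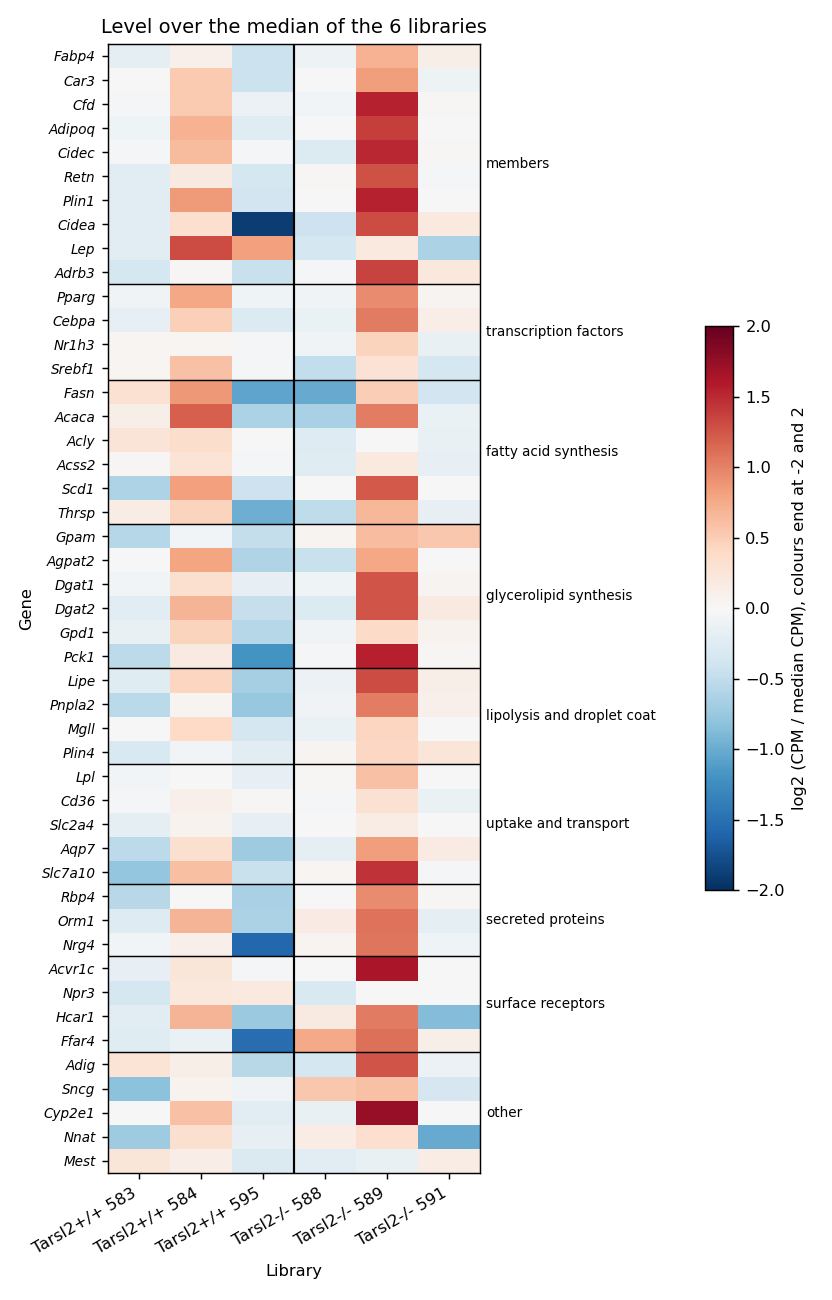
Heat map of the 10 markers (top block) and 37 other adipocyte genes grouped by role, as log2 of the CPM over the median of the 6 libraries, with *Tarsl2*+/+ mice left and *Tarsl2*-/- mice right of the vertical line. The column of mouse 589 is red for most genes, that of mouse 584 paler red, and *Lep* and most fatty acid synthesis genes are redder in mouse 584 than in mouse 589.

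The genes listed for thermogenic (brown and beige) adipocytes mostly did not share that order. Mouse 589 was highest in 5 of 16, a rank that 19.9% of all tested genes shared. Of the 16, *Cox8b* and *Cox7a1* stood above *Adipoq* in every library, and the part of muscle fibres in the levels of this list was not tested. *Ucp1*, the uncoupling protein that defines thermogenic fat, was counted between 74 and 1093 times per library. Its level was 62.1, 58.1 and 3.88 CPM in *Tarsl2*+/+ mice 583, 584 and 595 and 15.5, 57.0 and 36.5 CPM in *Tarsl2*-/- mice 588, 589 and 591. Mouse 595 was lowest, as for *Cidea*, and the groups overlapped (log2 fold change -0.19, SE 0.67, adjusted p = 0.916). Among the 16, 1 rose in *Tarsl2*-/- muscle, where 0.896% of all tested genes did. It was the transcription factor gene *Tbx1* (log2 fold change 0.63, SE 0.12, adjusted p = 0.0206), with 11.3, 13.8 and 14.0 CPM against 21.7, 18.2 and 20.7 CPM. *Tbx1* was highest in mouse 588, and the cells that carry its RNA were not tested.

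To compare adipocyte genes at equal adipocyte RNA, each was divided by *Adipoq* in the same library, a reference chosen after the levels were seen. Per 1000 CPM of *Adipoq*, *Plin1* ran from 299 to 370 and *Cfd* from 6932 to 8693 over the 6 libraries, narrower ranges than those of the levels. Mice 584 and 589 still had the highest ratios for *Plin1*, and mouse 589 the highest for *Cfd*. *Lep* reached 71.6, 121 and 165 CPM per 1000 CPM of *Adipoq* in *Tarsl2*+/+ mice 583, 584 and 595, and 62.2, 34.5 and 50.3 in *Tarsl2*-/- mice 588, 589 and 591. On this ratio the genotypes did not overlap for *Lep*, mouse 589 became the lowest library, and the geometric mean was 2.36-fold higher in *Tarsl2*+/+ muscle (p = 0.1 by an exact permutation test, two-sided, which cannot go lower with 3 mice a genotype). The gap between mice 588 and 583 was small. Divided by each of the other 9 markers in turn, *Lep* separated the genotypes for 7 of them. Over all 9 ratios the geometric means were 2.17 to 3.64-fold higher in *Tarsl2*+/+ muscle. These ratios all share the same *Lep* values. The 9 markers divided by were themselves alike (median r of 0.92) and all highest in mouse 589, so the 9 ratios are not separate results. The share of all genes that separate on such ratios was counted only for *Adipoq*.

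*Adrb3* was the other marker without overlap on this ratio, at 20.6, 15.6 and 21.7 CPM per 1000 CPM of *Adipoq* in *Tarsl2*+/+ and 24.8, 24.3 and 28.6 in *Tarsl2*-/- mice. Among the 9 markers 2 thus separated, where 1.98% of the 15065 tested genes outside the markers did, few of which follow the markers over the libraries. Of the 37 other adipocyte genes 5 separated (13.5%). *Pnpla2*, the lipase ATGL that starts triglyceride breakdown, was at 1472, 1303 and 1418 CPM per 1000 CPM of *Adipoq* in *Tarsl2*+/+ and 1952, 1586 and 2155 in *Tarsl2*-/- mice. *Lipe* (hormone-sensitive lipase), *Pck1* (the enzyme of glyceroneogenesis in fat) and the transporter gene *Slc7a10* were also higher against *Adipoq* in all *Tarsl2*-/- mice. *Srebf1*, a transcription factor of lipid synthesis, was lower, at 216, 184 and 228 against 142, 92.8 and 155 CPM per 1000 CPM of *Adipoq*. Muscle fibres also transcribe *Pnpla2* and *Srebf1*, and their part in these ratios was not tested. Undivided, none of these 5 genes passed the test between genotypes (adjusted p = 0.131 for *Pnpla2*, 0.32 for *Lipe*, 0.161 for *Pck1*, 0.375 for *Slc7a10* and 0.348 for *Srebf1*).

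**Figure D4:**
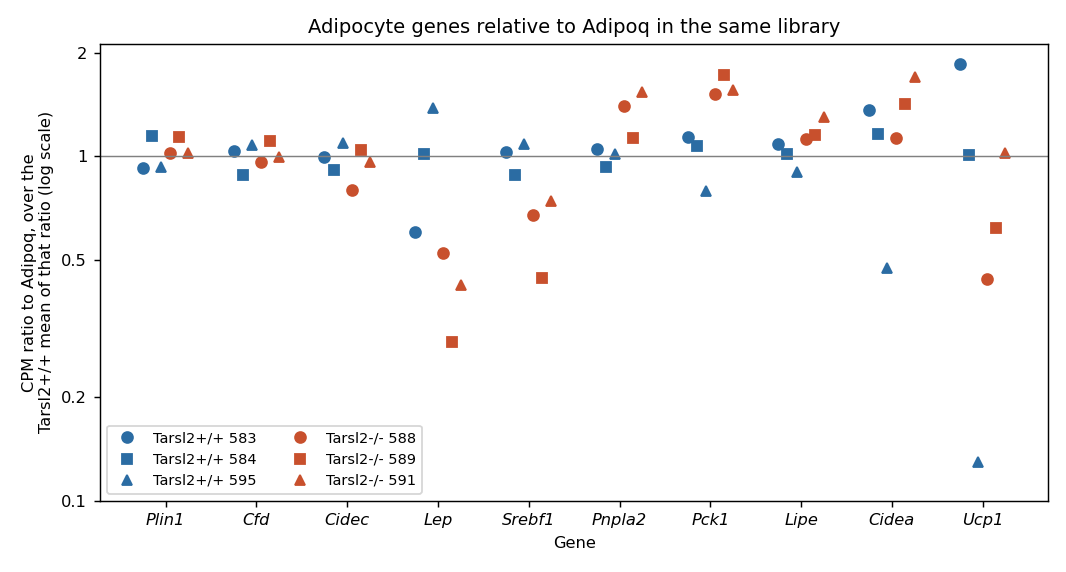
CPM of 10 genes divided by *Adipoq* in the same library and set to 1 at the *Tarsl2*+/+ mean of each ratio (log axis), with blue *Tarsl2*+/+ and orange *Tarsl2*-/- points. *Plin1*, *Cfd* and *Cidec* lie near 1 in all 6 libraries, all orange points lie below all blue ones for *Lep* and *Srebf1* and above them for *Pnpla2*, *Pck1* and *Lipe*, and mouse 595 is lowest for *Cidea* and *Ucp1*.

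The genes most like the markers were looked for among the other genes of the table. Over the 6 libraries, the genes with the highest r against the mean standardised level of the 10 markers, among 12439 genes compared, included *Slc1a5*, *Mapk6*, *Hacd2*, *Amy1*, *Gm5113*, *Tgoln1* and *Cebpa*, with r from 0.991 to 0.997. An r above 0.9 was found for 263 of these genes (2.11%). *Slc1a5*, a glutamine transporter gene, was at 69.0, 92.9 and 63.8 CPM in *Tarsl2*+/+ mice and 69.3, 137 and 72.0 CPM in *Tarsl2*-/- mice. *Cebpa*, a transcription factor of adipocyte differentiation, was at 53.3, 83.0 and 49.1 CPM in *Tarsl2*+/+ mice and 54.0, 123 and 65.1 CPM in *Tarsl2*-/- mice. For the genes named, r without mouse 589 was 0.972 to 0.997, over 5 libraries. These genes were picked by r over all 6 libraries, so this range is no separate test. The share of all genes that reach it without mouse 589 was not counted.

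The markers of fibroblasts, red cells and muscle fibres other than slow ones were mostly not highest in mouse 589. Fibroblast and preadipocyte genes summed to 10536 to 12012 CPM in *Tarsl2*+/+ and 8665 to 10254 CPM in *Tarsl2*-/- mice, with mouse 589 lowest and highest for 1 of 18 genes. Among these 18, 1 was lower in *Tarsl2*-/- muscle, *Cd55* (log2 fold change -0.65, adjusted p = 0.0162). Red cell genes summed to 4748 to 10392 CPM in *Tarsl2*+/+ and 4166 to 4536 CPM in *Tarsl2*-/- mice, and 0 of 6 passed the test by edgeR, with 5 at an unadjusted p under 0.05. The muscle fibre genes summed to 72954 to 76749 CPM in *Tarsl2*+/+ and 78586 to 84949 CPM in *Tarsl2*-/- mice, and 2 of 9 rose, *Des* and *Ckm* (log2 fold changes 0.50 and 0.49, adjusted p = 0.0196 and 0.0433). Of 10 fast fibre genes tested, 2 were higher in *Tarsl2*-/- muscle. Beside the counts of these lists, 0.896% of all tested genes rose and 1.37% fell. The part that these differences in other cells play in the marker levels was not tested.

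**Figure D5:**
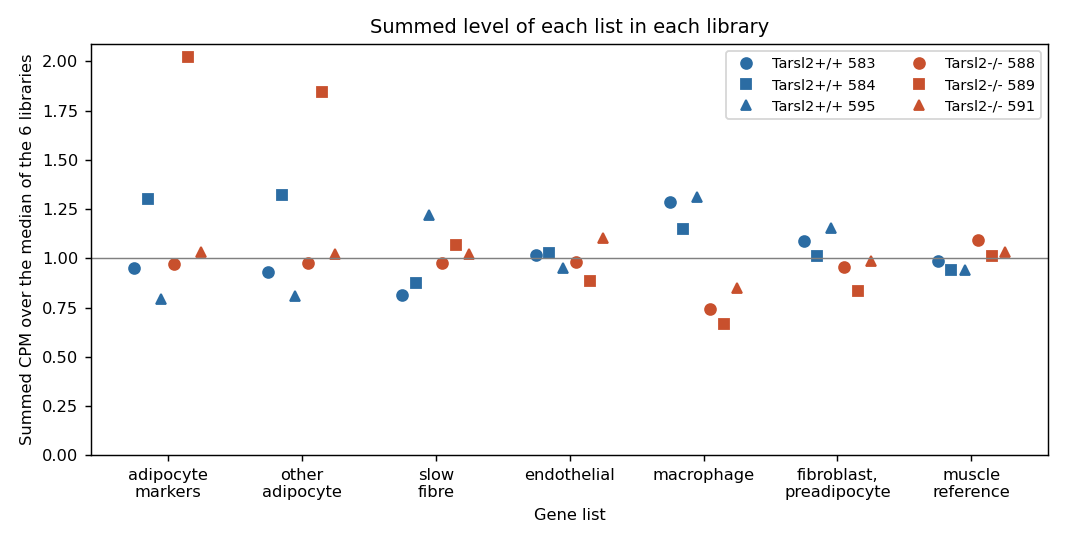
Summed CPM of each gene list in each library over the median of the 6 libraries (y axis from 0), with blue *Tarsl2*+/+ and orange *Tarsl2*-/- points. Mouse 589 lies near 2 for the 10 adipocyte markers and mouse 584 is second, whereas mouse 589 is the lowest point for the endothelial, macrophage and fibroblast lists.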

How the data were processed

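The authors deposited raw read counts per gene (53084 genes, 6 muscle libraries), with no normalization. Per the study's methods, reads from stranded mRNA libraries were mapped to mm10 with HISAT2, whereas the submitters' processing notes name Bowtie 0.12.2 and mm8. The table's coordinates equal those of GENCODE vM21 (GRCm38) for 95.2% of 52403 identifiers and for 9 of the 10 markers, all but *Cidea*. The counting tool, strand setting and annotation are not given in the sources used here, and the authors' gene length column was not used for levels per kilobase, which take GENCODE's principal transcript. Unnamed transcribed regions (448, 0.12% of counts) were left in the library totals. Columns were assigned to mice by their titles.

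Genes were filtered with filterByExpr (minimum count 10, minimum total 15), scaled with TMM factors and fitted by the quasi-likelihood functions of edgeR 4.0.16, with genotype as the only term, in R 4.3.3, with Benjamini-Hochberg adjustment and a threshold of 0.05. The common biological coefficient of variation was 12.1%. Alternatives were DESeq2 1.42.0, limma-voom (limma 3.58.1), other scaling factors and filters, sums without *Fabp4* or without *Fabp4* and *Car3*, and each library left out. Counts were also simulated for this comparison (14887 genes, of which 200 differed by 1 on the log2 scale). Of the changed genes 72.5% were recovered, and 11.6% of calls fell on unchanged genes, more than the threshold of 0.05 names. The changed genes were drawn at random and no library was simulated far above the rest, so recovery for the markers was not measured. Replicate libraries were not copies of each other (chi-square per gene of 13.0 or more). A count of 3 corresponds to 0.149 to 0.185 CPM, and intervals leave out any error beyond counting, as no molecular identifiers were used.

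The members and gene lists were chosen with earlier results of these data known. All 10 markers are named, with, from each other list, at most 6 genes past the threshold with the smallest p, and the 8 genes most like the markers (log2 CPM with prior count 2 and mean of at least 1), except that a result for a single gene is not reported here. The roles, the ratio to *Adipoq*, the fit without mice 584 and 589, and the other genes named with values (*Fasn*, *Ucp1*, *Myh7*, *Mb*, *Pnpla2*, *Lipe*, *Pck1*, *Slc7a10* and *Srebf1*) were chosen after values were seen.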

Additional observations from a re-analysis of the deposited data

How the results depend on the processing

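No paired analysis was possible because no replicate number is shared by the genotypes. All genes called numbered 342, with 719 by DESeq2, 1437 when 1 count in any library sufficed, and 81 to 625 when 1 library was left out. No marker was called except in 2 settings. Without the filter 9 of 10 were called, in a fit whose prior degrees of freedom for the spread were infinite rather than 7.23, and without 1 library 0 to 1 were called (*Lep*, without mouse 583). Of the 37 other adipocyte genes, 1 was called (2.27% of all tested genes were), with 2 by DESeq2 (4.77% of all). Without the filter 20 of 38 were called (5.62% of all). With 1 library left out 0 to 2 were called, beside 81 to 625 of all genes. Without mice 589 and 584, 4 of 37 were called, beside 311 of all 15293 genes. The markers' median log2 fold change, 0.47, ran from -0.15 to 0.77 with 1 library left out. That of their mean summed level, 0.40, ran from -0.02 to 0.62. With 1 library left out, the log2 fold change ran from -0.19 to 0.78 for *Adipoq*, -0.19 to 1.00 for *Plin1*, -0.17 to 0.81 for *Cfd*, -0.34 to 0.73 for *Cidec* and -0.13 to 0.51 for *Car3*. The negative values are those without mouse 589. With mice 589 and 584 both left out, that of *Cidec* was -0.08. Those of *Adipoq*, *Plin1*, *Cfd* and *Car3* were then 0.16, 0.30, 0.05 and 0.16. With 3 mice a genotype and 1 of them far above the rest, these data limit what can be said of a genotype difference in fat, and the muscle taken is not known.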
